A study of Mus musculus with 6 samples.

Results

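Transcripts of 10 genes of the TGF-beta pathway were followed in aortic EC that overexpressed Meis1. The genes were the ligands Tgfb1, Tgfb2 and Tgfb3, the receptors Tgfbr1, Tgfbr2 and Tgfbr3, the signal transducers Smad2, Smad3 and Smad4, and the TGF-beta-induced matrix gene Tgfbi. They were picked by symbol, and all 10 were found among the 54429 genes of the deposited count table and passed the filter on low counts. Primary aortic EC from adult wild-type C57BL/6 mice received a lentiviral vector carrying Meis1 (Meis1-OE, 3 libraries) or a control vector (YFP-CTRL, 3 libraries). Cells of both groups were sorted as YFP+CD31+VEC+ at 72 h, re-plated and grown to confluency before RNA was taken, so the controls had also been transduced, sorted and expanded. Libraries are named by the letter they carry in the table, and 3 values given together for a group are in the order A, B, C.

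TGF-beta ligands are secreted in a latent form, held by latency-associated peptide and latent TGF-beta binding proteins, and must be released to signal. The active ligand brings the type II receptor Tgfbr2 and the type I receptor Tgfbr1 together, and Tgfbr1 then phosphorylates Smad2 and Smad3, which enter the nucleus with Smad4. Betaglycan, the product of Tgfbr3, is a co-receptor best known for presenting TGF-beta 2, which binds Tgfbr2 poorly by itself. In endothelium the pathway is known for its part in growth arrest, matrix production and endothelial-to-mesenchymal transition, and a second type I receptor, Acvrl1, works there with the co-receptor Eng.

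The data held between 34176592 and 47956569 counts per library. Meis1 itself was at 2961 to 3477 CPM (counts scaled by TMM to a common library size) in Meis1-OE EC and at 1.15 to 1.87 CPM in YFP-CTRL EC, where reads of the vector and of the endogenous gene were not separated. Pecam1 and Cdh5 are the genes of the sorting markers. Pecam1 lay between 804 and 1004 CPM with Meis1 and between 769 and 1161 CPM in the controls. Cdh5 was lower with Meis1, at 1182 to 1452 CPM against 1784 to 2628 CPM, without overlap between the groups. The 10 endothelial markers summed to 3366 to 4276 CPM in Meis1-OE EC and 4413 to 6122 CPM in YFP-CTRL EC. In edgeR (test and threshold given below), Cldn5 and Vwf were called higher and Tek lower, beside 4.14% and 2.73% of all genes. Kdr was at 261 to 367 CPM with Meis1 and 457 to 1042 CPM in the controls. Kdr and Cdh5 did not pass in edgeR, with adjusted p-values of 0.0504 and 0.0535, just above the threshold. DESeq2 gave them adjusted p-values of 0.00134 and 0.0095. Pecam1, Tie1, Erg, Emcn and Egfl7 overlapped between the groups. Of 9 macrophage markers, 5 were at 0 counts in every library, and their summed level was 0.525 to 1.48 CPM in Meis1-OE EC and 0.343 to 0.594 CPM in YFP-CTRL EC. The 12 fibroblast and smooth muscle markers summed to 16.2 to 18.4 CPM in Meis1-OE EC and 34.9 to 54.3 CPM in YFP-CTRL EC. Pdgfra gave the largest part of that sum in every library but YFP-CTRL library C, where Acta2 did. The part of the difference in that sum in any result was not tested. Of the 12, 4 passed the filter on low counts, with 1 called higher and 0 lower, beside 4.14% and 2.73% of all genes. Des was the one called, at 18 to 24 counts with Meis1 and 0 to 2 in the controls. Pdgfra, at 11.7 to 11.9 CPM with Meis1 and 15.6 to 49.1 CPM in the controls, did not pass in edgeR. Its adjusted p was 0.0598 from edgeR and 0.0014 from DESeq2. Pdgfrb and Acta2 overlapped between the groups, and Lum was at 0 in every library. YFP-CTRL library C stood apart from the other controls. For 15 genes of S phase and mitosis, the mean log2(CPM + 1) was 4.33, 5.30 and 6.49 in the controls, and 6.48 to 6.53 in the Meis1-OE libraries. This proliferation score thus varied almost only among the controls. A fit that adds the score rests on the controls and leans on library C, the control nearest to Meis1-OE EC in score. Members and list counts that library C changed are given with and without it.

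Of the 3 ligand genes 2 rose, and of the 3 receptor genes 1 fell in Meis1-OE EC, while the other 7 members did not pass the threshold of an adjusted p of 0.05. Tgfb3 was 34.0-fold higher, Tgfb2 was 3.39-fold higher, and Tgfbr3 was 1.66-fold lower. The test was edgeR's quasi-likelihood test over 16065 genes with Benjamini-Hochberg adjustment. Over all of those genes, 4.14% were called higher and 2.73% lower. The 10 members had a median log2 change (log2 fold change of Meis1-OE over YFP-CTRL) of 0.27, against 0.01 for all genes tested. The plot of members by library shows each value, and the plot of fold changes shows how far each difference moved when single libraries were left out.

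**Figure D1:**
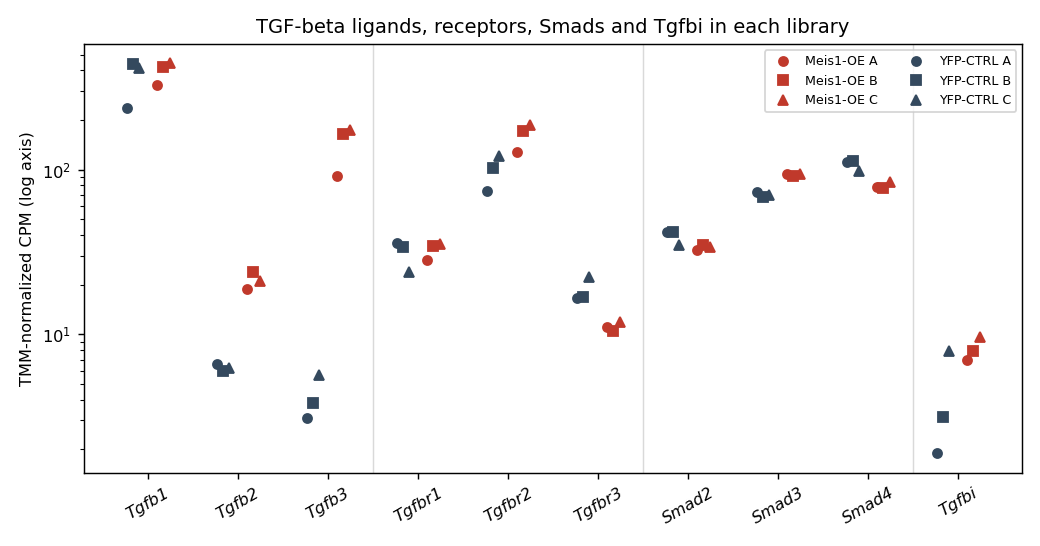
TMM-normalized CPM of the 10 members on a log axis, with 1 point per library, dark for YFP-CTRL, red for Meis1-OE and a symbol for each library letter. Points of Tgfb2 and Tgfb3 are far apart between conditions, at 6.01 to 6.57 against 18.8 to 23.8 CPM for Tgfb2, while those of Tgfb1 and Tgfbr1 overlap.

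Tgfb3 encodes the ligand TGF-beta 3, known for its part in palate and lung development. The gene lies at chr12:86056743-86079041 (GRCm38.p6), where RefSeq places no other gene. It was counted 105, 156 and 258 times in the controls, and 4153, 7490 and 8073 times with Meis1. The normalized levels were 3.09, 3.82 and 5.68 CPM in the controls, and 90.9, 165 and 174 CPM with Meis1. The lowest Meis1-OE library was thus far above the highest control, and Meis1-OE library A was the lowest of its group. The log2 change was 5.09 with a standard error of 0.35, a 95% interval of 4.26 to 5.92 and an edgeR adjusted p of 0.00143. In fold terms that interval ran from 19.1 to 60.4. Tgfb3 passed the threshold in all 14 alternative analyses, with log2 changes of 4.67 to 5.35.

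Tgfb2 encodes TGF-beta 2, the ligand known for heart valve and cardiac cushion formation from endothelium. The gene spans chr1:186622787-186709697 (GRCm38.p6) on the minus strand. RefSeq places 2 predicted genes over parts of its span. Gm26169 was at 0 counts in every library. Gm35655 had no row of its own among the counts, and without a stated use of strand its reads cannot be told apart from those of Tgfb2. The level of Tgfb2 was 6.57, 6.01 and 6.23 CPM in the controls, from at least 223 counts, and 18.8, 23.8 and 21.0 CPM with Meis1. The controls were close to each other, and all 3 lay below every Meis1-OE library. On the log2 scale the difference was 1.76 with a standard error of 0.14 and an edgeR adjusted p of 0.00206. It also passed in all 14 alternative analyses, with log2 changes of 1.67 to 1.90.

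Tgfb1 encodes TGF-beta 1, the ligand most widely made by blood and vascular cells. Its level was 236, 438 and 412 CPM in the controls, and 329, 421 and 441 CPM with Meis1. The groups overlapped, with control library A below all others. The log2 change was 0.13 with a 95% interval of -0.43 to 0.70 and an edgeR adjusted p of 0.769. A change of up to 1.62-fold upward or to 0.741 of the control level lies within that interval. Without YFP-CTRL library A the value was -0.12.

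The 250 bases upstream of the RefSeq start are shown for Tgfb2, which rose, and for Tgfb1, which did not pass the test. Of the 10 members, 6 had such a window in the RefSeq table of build GRCm38.p6, and Tgfb3 was not among them. Capitals mark motifs found on either strand. The motifs searched were TATAAA (the TATA box), CAGAC (the core bound by Smad3 and Smad4), CACGTG (an E-box) and TGACAG (the hexamer known for Meis proteins). None of these letter strings contains another, though the ends of CAGAC and TGACAG can share bases.
Tgfb2, chr1:186705990-186706239, minus strand: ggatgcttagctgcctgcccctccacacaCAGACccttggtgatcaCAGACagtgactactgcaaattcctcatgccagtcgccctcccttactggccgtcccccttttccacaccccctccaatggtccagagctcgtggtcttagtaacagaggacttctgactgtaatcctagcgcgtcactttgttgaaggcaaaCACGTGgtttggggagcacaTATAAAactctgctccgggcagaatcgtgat
Tgfb1, chr7:25686752-25687001, plus strand: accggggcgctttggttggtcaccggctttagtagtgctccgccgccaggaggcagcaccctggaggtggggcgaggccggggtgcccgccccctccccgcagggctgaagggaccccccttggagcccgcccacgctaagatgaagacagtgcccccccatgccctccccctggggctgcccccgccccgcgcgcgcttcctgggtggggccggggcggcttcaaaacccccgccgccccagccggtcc

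The Tgfb2 window held a TATA box that begins 31 bases before the start, an E-box 51 bases before it, and the CAGAC core at 221 and 204 bases before it. The Tgfb1 window held none of the 4 strings. Among all 32851 windows of the same length, 12.4% held TATAAA, 42.2% held CAGAC, 6.02% held CACGTG and 15.9% held TGACAG. The GC content was 75.2% in the Tgfb1 window and 53.6% in the Tgfb2 window, where the median of all windows was 52.4%. The Tgfb2 window lies inside the gene span given above, since RefSeq extends the gene beyond this start. A match describes letters and not a bound site.

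Levels of different genes were compared per kb of exon, with exon lengths from the GENCODE vM1 annotation. On this scale Tgfb1 was the main ligand transcript of both groups. In YFP-CTRL EC it stood at 141 ± 42.8 CPM per kb (SD, n = 3), with Tgfb2 at 1.29 ± 0.0582 and Tgfb3 at 1.24 ± 0.394. Tgfb1 made up 97.6%, 98.6% and 98.2% of the summed ligand level in the controls. With Meis1 it made up 80.7%, 75.4% and 75.5%.

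The rest of the ligand level in Meis1-OE EC was mostly Tgfb3. Its share was 16.9%, 22.4% and 22.6% with Meis1, and 0.965%, 0.651% and 1.02% in the controls. Tgfb2 stayed a small part, at 1.90% to 2.44% with Meis1 and 0.715% to 1.43% in the controls. The summed ligand level was 202 ± 37.3 CPM per kb in Meis1-OE EC and 144 ± 43.0 in YFP-CTRL EC (SD, n = 3 each), and Meis1-OE library A, at 159, lay below YFP-CTRL libraries B and C. These shares are descriptions without a test, since 3 libraries against 3 cannot give an exact permutation p below 0.1. In bulk RNA, a change in the number of cells that carry a transcript and a change in the level per cell cannot be told apart.

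**Figure D2:**
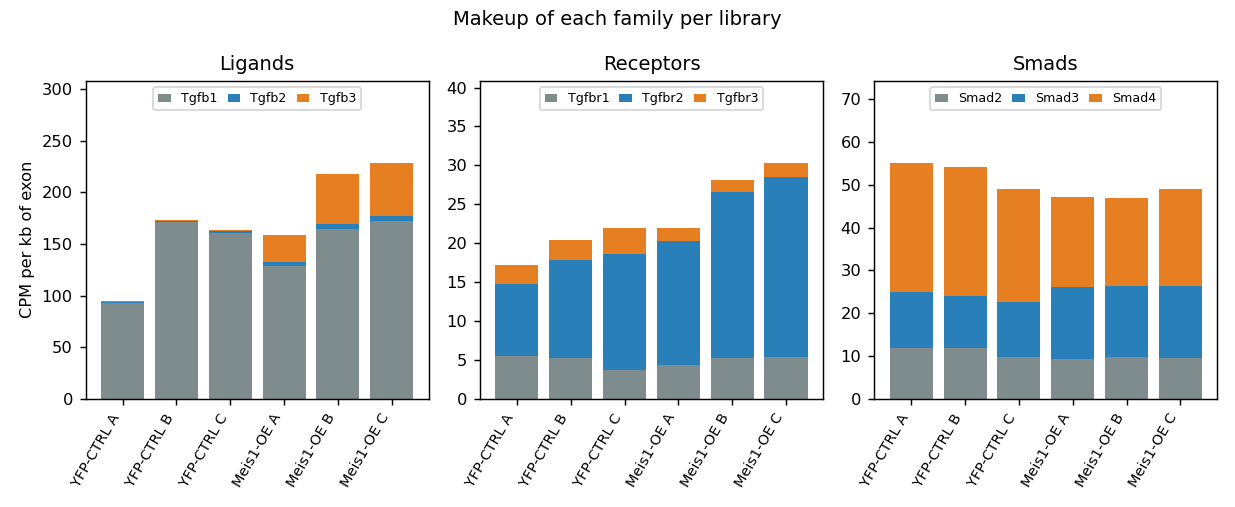
Stacked levels of the ligand, receptor and Smad genes in CPM per kb of exon, with 1 bar per library and 1 colour per gene, on axes that start at 0. The Tgfb3 part of the ligand bar is 16.9% to 22.6% in the Meis1-OE libraries and 0.651% to 1.02% in the YFP-CTRL libraries.

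Among the receptors, Tgfbr3 was the single member that passed the test downward. It lies at chr5:107106567-107289629 (GRCm38.p6), where the overlapping gene Gm8145 was at 0 counts in every library. Its level was 16.5, 16.7 and 22.2 CPM in the controls, and 11.0, 10.4 and 11.9 CPM with Meis1. All 3 Meis1-OE libraries lay below all 3 controls. On the log2 scale the difference was -0.73 with a standard error of 0.16 and an edgeR adjusted p of 0.0405. The call was lost without Meis1-OE library A (edgeR adjusted p = 0.137), B (0.216) or C (0.157), and without YFP-CTRL library B (0.0945). Lower calls over all genes in those fits were 68, 16, 18 and 66, against 438 with all 6 libraries. The Tgfbr3 call was also lost on library totals without TMM scaling, at a log2 change of -0.59 and an edgeR adjusted p of 0.0666. The value stayed negative in all 14 alternative analyses.

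Tgfbr2, the type II receptor, was at 74.5, 102 and 120 CPM in the controls, and at 128, 172 and 186 CPM with Meis1. No Meis1-OE library overlapped a control, though Meis1-OE library A and YFP-CTRL library C were close. The log2 change of 0.71, with a 95% interval of 0.22 to 1.21, had an edgeR adjusted p of 0.0889. DESeq2 gave an adjusted p of 0.0401, and edgeR without YFP-CTRL library C gave 0.86 with an adjusted p of 0.0208. Adding the proliferation score to the fit gave 0.38, the lowest of the alternatives.

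Tgfbr1, the type I receptor, did not separate the groups. Its level was 35.9, 33.8 and 24.0 CPM in the controls, and 28.3, 34.2 and 35.2 CPM with Meis1. The log2 change was 0.06 with a 95% interval of -0.36 to 0.48 and an edgeR adjusted p of 0.868. Leaving out YFP-CTRL library C gave -0.11. RefSeq places a predicted gene over parts of Tgfbr1, Tgfbr2 and Smad3 each (Gm32435, Gm31292 and Gm51710), and without a stated use of strand their reads cannot be told apart.

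Per kb of exon, Tgfbr2 was the highest of the 3 receptor transcripts in every library. Its share of the summed receptor level was 53.4%, 62.1% and 67.8% in the controls, and 72.5% to 76.2% in the Meis1-OE libraries. The share of Tgfbr3 was 14.2% ± 1.49 in YFP-CTRL EC and 6.46% ± 1.08 in Meis1-OE EC (SD, n = 3 each), with no overlap between the groups. The transcript of Tgfbr3, whose product presents TGF-beta 2, was lower in the same libraries in which the Tgfb2 transcript was higher. These are RNA levels, and Tgfbr3 passed in 8 of the 14 alternative analyses.

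No Smad gene passed the threshold in edgeR with TMM scaling on all 6 libraries. The groups did not overlap for any of the 3, and for Smad2 only barely so. Over all genes tested, the groups did not overlap for 17.2% in the higher and 15.9% in the lower direction. Smad3 was at 73.1, 67.7 and 70.5 CPM in the controls, and at 93.6, 91.3 and 93.6 CPM with Meis1. The spread within each group was small, and the groups did not overlap. The log2 change of 0.40, with a 95% interval of 0.17 to 0.62, had an edgeR adjusted p of 0.0536, just above the threshold, and of 0.0176 from DESeq2. On library totals without TMM scaling edgeR gave 0.54, with an adjusted p of 0.0284.

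Smad4, the partner shared with BMP signalling, was at 112, 112 and 98.5 CPM in the controls, and at 78.8, 76.8 and 84.6 CPM with Meis1. Every Meis1-OE library lay below every control. The log2 change of -0.42, with a 95% interval of -0.67 to -0.17, had an edgeR adjusted p of 0.0603 and of 0.0269 from DESeq2. Smad2 was at 41.9, 41.7 and 34.7 CPM in the controls, and at 32.5, 34.7 and 33.6 CPM with Meis1. The value of YFP-CTRL library C was barely above that of Meis1-OE library B, and the log2 change of -0.23 had an edgeR adjusted p of 0.270.

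Per kb of exon, Smad4 was the highest and Smad2 the lowest of the 3 Smad transcripts in every library. Smad3 took 24.1% ± 1.71 of their summed level in YFP-CTRL EC and 35.1% ± 0.666 in Meis1-OE EC (SD, n = 3 each). Smad4 took 54.8% ± 0.871 and 45.1% ± 1.15. The sum of the 3 was 52.8 ± 3.26 CPM per kb in YFP-CTRL EC and 47.8 ± 1.19 in Meis1-OE EC (SD, n = 3 each), and YFP-CTRL library C lay within the range of the Meis1-OE libraries. These shares were not tested.

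Tgfbi encodes a secreted matrix protein that binds integrins and was named for its induction by TGF-beta. Its level was 1.88, 3.14 and 7.92 CPM in the controls, and 6.94, 7.91 and 9.59 CPM with Meis1. YFP-CTRL library C lay within the Meis1-OE range, and the other controls were lower. The lowest value rested on 64 counts, with an exact 95% Poisson interval of 49.3 to 81.7 that covers counting error only. On the log2 scale the difference was 0.91 with a 95% interval of -0.21 to 2.03 (edgeR adjusted p = 0.275). Adding the proliferation score to the fit gave 0.07, and leaving out YFP-CTRL library C gave 1.67 (edgeR adjusted p = 0.00582). The controls had the same order in Tgfbi as in the proliferation score given above, and the part of growth state in its values was not tested.

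YFP-CTRL library C decided the status of several members. Without it, 8 of the 10 members passed the threshold in edgeR. Tgfb2, Tgfb3, Tgfbr2, Smad3 and Tgfbi were higher, where 16.5% of all genes tested were called higher in the same fit. Tgfbr3, Smad2 and Smad4 were lower, where 15.2% were called lower, with edgeR adjusted p-values of 0.00891, 0.0268 and 0.00593. With DESeq2 on all 6 libraries, 4 members were higher and 2 were lower, against 6.21% and 6.14% of all genes tested by that tool. The groups did not overlap for 7 members, of which Tgfb2, Tgfb3, Tgfbr2 and Smad3 were higher with Meis1 and Tgfbr3, Smad2 and Smad4 were lower. Over all genes tested by edgeR, the groups did not overlap for 17.2% in the higher and 15.9% in the lower direction.

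**Figure D3:**
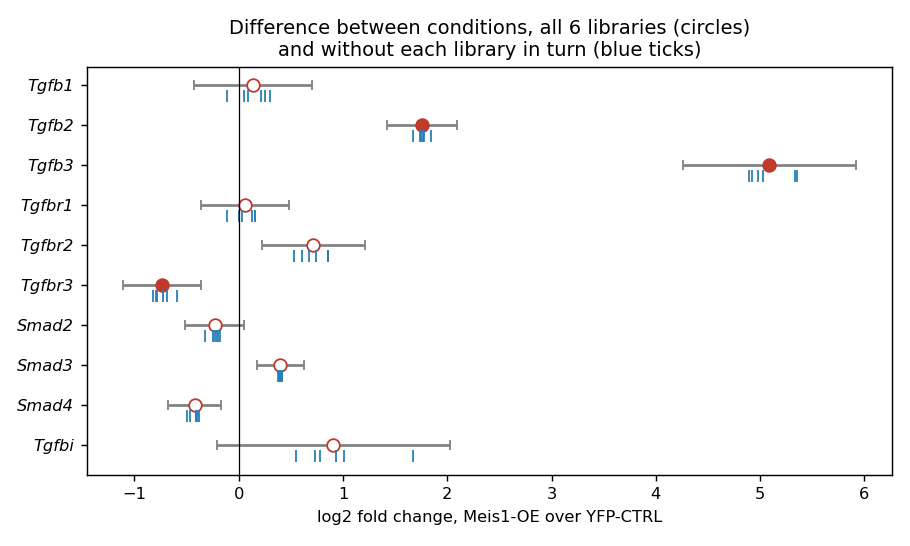
Log2 fold change of each member between Meis1-OE and YFP-CTRL EC with its 95% interval from edgeR, where filled circles passed an adjusted p of 0.05 and blue ticks give the value without each library in turn. Tgfb3 stays between 4.90 and 5.35 and Tgfb2 between 1.67 and 1.84, while Tgfbi reaches 1.67 without YFP-CTRL library C.

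The order of the members per kb of exon changed mainly at Tgfb3. In YFP-CTRL EC the order was Tgfb1, then Smad4 at 28.9, Smad3 at 12.7, Tgfbr2 at 12.2, Smad2 at 11.1, Tgfbr1 at 4.78, Tgfbr3 at 2.83, Tgfbi at 1.45, Tgfb2 at 1.29 and Tgfb3 at 1.24 CPM per kb. The range of Tgfbr2 over the libraries overlapped those of its neighbours Smad3 and Smad2, and the range of Tgfbi overlapped those of Tgfbr3, Tgfb2 and Tgfb3. In Meis1-OE EC Tgfb3 came directly after Tgfb1, at 42.4 ± 13.5 CPM per kb (SD, n = 3) against 155 ± 23.4 for Tgfb1. There Smad4, Tgfbr2 and Smad3 followed at 21.6, 20.1 and 16.7 CPM per kb. The range of Tgfbr2 again overlapped those of Smad4 and Smad3. Tgfbr3 was last at 1.70 CPM per kb.

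Other genes of the pathway were read from 4 lists of 61 genes, of which 55 passed the filter on low counts. In edgeR, 6 of the 55 were higher in Meis1-OE EC (among them Ltbp2, Ltbp3, Pmepa1, Fn1 and Postn) and 3 were lower (Ltbp4, Cdkn2b and Snai2), where 4.14% of all genes tested were higher and 2.73% lower. Their median log2 change was 0.04. Leaving out YFP-CTRL library C gave 11 higher and 9 lower genes, in a fit that called 16.5% of all genes higher and 15.2% lower. The plot of pathway genes shows those reported here.

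**Figure D4:**
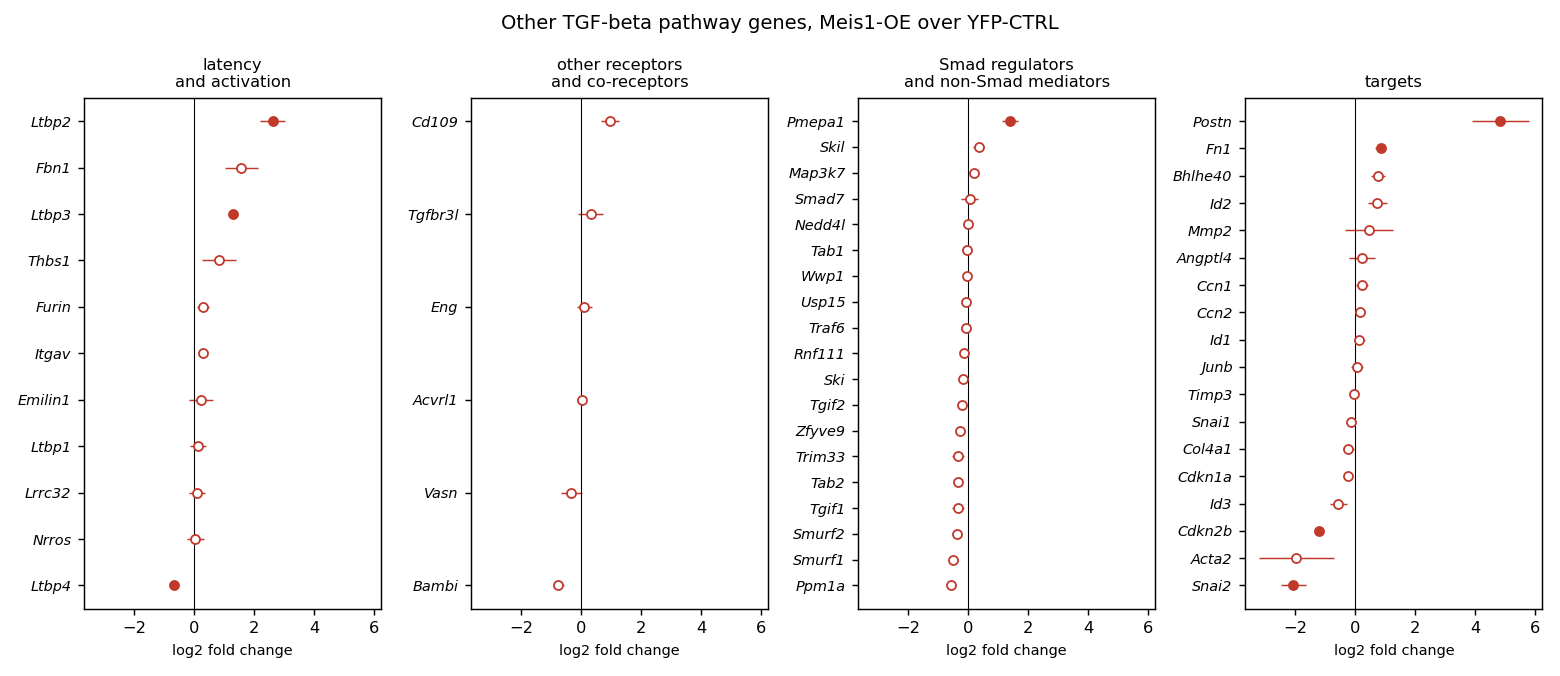
Log2 fold change of the tested genes of the 4 pathway lists that are reported here, with its standard error, where filled circles passed an adjusted p of 0.05 in edgeR. Postn is the highest at 4.83 and Snai2 the lowest at -2.06, and the median of all 55 tested was 0.04.

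In the list drawn up for latency and activation of TGF-beta, 2 of 11 tested genes were higher and 1 was lower, beside 4.14% and 2.73% of all genes. When YFP-CTRL library C was left out, 4 were higher and 1 was lower, beside 16.5% and 15.2% of all genes. Ltbp3, a latent TGF-beta binding protein secreted with the ligand, was at 35.5, 38.7 and 48.3 CPM in the controls, and at 98.7, 98.7 and 104 CPM with Meis1. Its groups were far apart, with a log2 change of 1.30, a standard error of 0.14 and an edgeR adjusted p of 0.0049, and it passed in all 14 alternative analyses. Ltbp2, a family member known to bind fibrillin rather than latent TGF-beta, had a log2 change of 2.62 (edgeR adjusted p = 0.0153) on few reads, with 25 to 30 counts with Meis1 and 2 to 7 in the controls. Ltbp4 fell, with 83.5 to 110 CPM in the controls, 58.1 to 70.4 CPM with Meis1, a log2 change of -0.66 and an edgeR adjusted p of 0.0416.

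Neither Ltbp2 nor Ltbp4 held when some libraries were left out. Calls over all genes also fell without Meis1-OE library A, B or C, from 665 to 329, 115 and 126 higher genes. Lower genes fell from 438 to 68, 16 and 18. Without Meis1-OE library A, B or C the adjusted p from edgeR was 0.0623, 0.0969 or 0.0721 for Ltbp2 and 0.0851, 0.211 or 0.195 for Ltbp4. Without YFP-CTRL library B it was 0.0823 for Ltbp2 and 0.0665 for Ltbp4, and Ltbp4 gave 0.0701 when YFP-CTRL library A was left out. Both calls were also lost once the proliferation score entered the fit (0.0673 for Ltbp2 and 0.0917 for Ltbp4), and that of Ltbp4 on library totals (0.107). Lrrc32, which tethers latent TGF-beta to the cell surface, was at 335 ± 24.2 CPM with Meis1 and 310 ± 117 CPM in the controls (SD, n = 3 each). Thbs1, an activator of latent TGF-beta, was at 61.6, 98.8 and 343 CPM in the controls and at 263 to 328 CPM in Meis1-OE EC, so that control library C was above every Meis1-OE library. Its log2 change was 0.82 (edgeR adjusted p = 0.398), and 1.87 without YFP-CTRL library C (0.0025). Itgb8 was at 0 counts in every library and Itgb6 at 2 or fewer.

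None of the 6 other receptors and co-receptors passed the threshold in edgeR, beside 4.14% of all genes higher and 2.73% lower. In the same test 2 of them had an unadjusted p under 0.05, as did 4205 of all 16065 genes tested. DESeq2 called 1 of them higher and 1 lower, beside 6.21% and 6.14% of all genes. When YFP-CTRL library C was left out, edgeR called Cd109 higher (1.33, edgeR adjusted p = 0.00735) and Bambi lower (-0.79, edgeR adjusted p = 0.0329). That fit called 16.5% of all genes higher and 15.2% lower. Eng was at 212 ± 3.82 CPM with Meis1 and at 133, 179 and 278 CPM in the controls. Acvrl1 was at 226 ± 20.0 and 223 ± 34.1 CPM (SD, n = 3 each), a log2 change of 0.02 with a 95% interval of -0.32 to 0.35. Cd109, a co-receptor known to dampen the signal, was at 165 to 202 CPM with Meis1 and 55.7 to 143 CPM in the controls, without overlap. Its adjusted p was 0.108 from edgeR and 0.0315 from DESeq2. Bambi, a pseudoreceptor, was at 2.35 to 3.17 CPM with Meis1 and 4.31 to 4.61 CPM in the controls, with adjusted p-values of 0.0628 from edgeR and 0.0114 from DESeq2.

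Of 19 Smad regulators and mediators outside the Smad route, 1 was higher and 0 were lower in edgeR, beside 4.14% and 2.73% of all genes. An unadjusted edgeR p under 0.05 was reached by 5 of the 19, and by 4205 of all 16065 genes tested. DESeq2 called 1 higher and 1 lower, beside 6.21% and 6.14% of all genes. When YFP-CTRL library C was left out, edgeR called 2 higher and 5 lower, beside 16.5% and 15.2% of all genes. With the proliferation score in the fit it called 3 higher and 1 lower, where 410 of all genes were higher and 335 lower. Pmepa1, a TGF-beta-induced gene whose product restrains Smad2 and Smad3, was at 25.8, 12.9 and 17.8 CPM in the controls, and at 39.1, 53.7 and 55.0 CPM with Meis1. Its groups did not overlap, with a log2 change of 1.39 and an edgeR adjusted p of 0.0278. The call was lost without Meis1-OE library A, B or C (0.0594, 0.133 and 0.127) and without YFP-CTRL library B (0.0771). Higher calls over all genes in those fits were 329, 115, 126 and 204, against 665 with all 6 libraries. Smad7 and Skil, inhibitors that TGF-beta itself induces, had log2 changes of 0.05 and 0.35 with edgeR adjusted p-values of 0.933 and 0.261. Smad7 was at 58.1, 39.4 and 25.6 CPM in the controls, on both sides of the Meis1-OE values of 40.6 to 44.5 CPM. Ppm1a, a phosphatase of Smad2 and Smad3, was at 79.0 to 89.0 CPM with Meis1 and 102 to 137 CPM in the controls (edgeR adjusted p = 0.0651). Leaving out YFP-CTRL library C moved it from -0.56 to -0.70 on the log2 scale (edgeR adjusted p = 0.00204).

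Among 19 tested genes known to be induced or repressed by TGF-beta, 3 were higher and 2 were lower, beside 4.14% and 2.73% of all genes. When YFP-CTRL library C was left out, 4 were higher and 2 were lower, beside 16.5% and 15.2%. Fn1, which encodes fibronectin, was at 2013 ± 404 CPM in the controls and 3638 ± 467 CPM with Meis1 (SD, n = 3 each), a log2 change of 0.85 (edgeR adjusted p = 0.0376). Postn, the matrix gene periostin, was counted 0, 2 and 4 times in the controls, and 20, 53 and 131 times with Meis1 (edgeR adjusted p = 0.0312). Fn1 was abundant in both groups, whereas Postn was near the floor of 3 counts in the controls and low with Meis1.

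The 2 lower targets were genes that TGF-beta is known to induce in many cells. Cdkn2b, the cell cycle inhibitor p15, was at 100.4, 115 and 72.3 CPM in the controls, and at 39.6, 41.4 and 43.9 CPM with Meis1. Its log2 change was -1.20 with an edgeR adjusted p of 0.0122. Snai2, a transcription factor of mesenchymal transition, was at 75.4, 84.1 and 24.3 CPM in the controls, and at 13.5, 16.3 and 14.3 CPM with Meis1. Its log2 change was -2.06 with an edgeR adjusted p of 0.0348, and YFP-CTRL library C was the control nearest to the Meis1-OE values. Other well-known targets did not pass in edgeR on all 6 libraries. Ccn2 and Id1 had log2 changes of 0.15 and 0.14, and Junb was at 0.06, with edgeR adjusted p-values of 0.609, 0.657 and 0.883. Bhlhe40, Id2, Id3 and Cdkn1a, the unpassed targets with the smallest p-values, had larger log2 changes of 0.77, 0.74, -0.56 and -0.24. Their edgeR adjusted p-values were 0.0902, 0.195, 0.273 and 0.183. For Bhlhe40, DESeq2 gave an adjusted p of 0.0369, and edgeR without YFP-CTRL library C gave 0.55 (0.0359).

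Each of these targets (Fn1, Postn, Cdkn2b and Snai2) lost its call when some single libraries were left out. The same fits held fewer calls over all genes, with 329, 115 and 126 higher genes without Meis1-OE library A, B or C, against 665. Lower genes were 68, 16 and 18, against 438. Without Meis1-OE library A, B or C the adjusted p from edgeR was 0.132, 0.157 or 0.109 for Fn1, 0.135, 0.150 or 0.157 for Snai2, and 0.0633, 0.0832 or 0.0687 for Cdkn2b. Without YFP-CTRL library A or B it was 0.0644 or 0.114 for Fn1 and 0.0712 or 0.128 for Snai2. Postn was lost without Meis1-OE library B or C (0.105 and 0.0970) and without YFP-CTRL library A or B (0.0624 and 0.132). Once the proliferation score entered the fit, Snai2 was at -1.04 (edgeR adjusted p = 0.150), Fn1 at 0.71 (0.119) and Postn at 3.76 (0.160), none of them called, while Cdkn2b was called at -0.93 (0.0340). That fit leans on YFP-CTRL library C, since the score varied almost only among the controls. Fn1, Postn, Cdkn2b and Snai2 all passed without YFP-CTRL library C. Col1a1, Col1a2 and Tagln, which TGF-beta raises in mesenchymal cells, reached no more than 29 counts and were not tested.

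For each member that passed the threshold, the 3 genes with the most similar pattern over the 6 libraries were taken from 10222 genes with a mean of at least 5 CPM. Likeness was Pearson's r of log2(CPM + 1), which over 6 libraries in 2 groups mostly follows the difference between the groups. For Tgfb3 these were Gda, Csf2rb and Adgre5, each with an r of at least 0.997 and log2 changes of 2.67, 5.91 and 1.39. Mras, Piezo2 and Plcb2 came closest to Tgfb2, at 1.07, 0.95 and 6.76 on the log2 scale. For Tgfbr3 they were Bysl, Ubap2 and Cdkn1a, whose log2 changes of -0.40, -0.26 and -0.24 did not pass the threshold, with edgeR adjusted p-values of 0.0693, 0.146 and 0.183.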

How the data were processed

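Ribodepleted RNA-seq of 6 libraries was analysed, 3 for each vector. The authors deposited estimated counts per gene, not normalized, in a table of 54429 gene symbols. The submitters' processing notes name the build mm10, while the aligner, the counting tool, the annotation and the use of strand are not given in the sources used here. Counts were rounded to whole numbers. Groups came from the labels, and column letters could not be matched to the labels' replicate numbers. No pair of libraries agreed within sampling noise.

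The main test was edgeR 4.0.16 under R 4.3.3, with TMM scaling and Benjamini-Hochberg adjustment of its quasi-likelihood p-values over the 16065 genes that filterByExpr retained. DESeq2 1.42.0 was an alternative. Standard errors were derived from the F statistic. Both tools were run on simulated counts with 200 changed genes. That simulation had less spread between libraries than these data and no library that stood apart, so it does not measure the error of the calls here. Fold changes are Meis1-OE over YFP-CTRL. Named were the 10 members, list genes past the threshold (1 of them is counted but not reported here) and others of each list with small p-values or high levels. Lrrc32, Eng, Acvrl1, Smad7, Skil, Ccn2, Id1, Junb and the genes with too few counts were named for their known roles, after their values were seen. The members, lists and alternatives were chosen with earlier results of these data known. Ccn1 and Ccn2 appear in the table under the older symbols Cyr61 and Ctgf. Positions and promoters came from RefSeq (GRCm38.p6), and lengths from GENCODE vM1 (NCBIM37), which may differ from the authors' annotation. Intervals on counts cover counting error only, since reads are not independent molecules. The p-values measure the spread between these libraries.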

Additional observations from a re-analysis of the deposited data

How the results depend on the processing

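Tgfb2, Tgfb3 and Ltbp3 passed the threshold in all 14 alternative analyses. With all 6 libraries, 665 genes were higher and 438 lower, and 2 members and 6 pathway list genes were higher while 1 member and 3 list genes were lower. On library totals without TMM scaling, 1048 genes were higher and 179 lower, so that 85.4% of the calls were higher in place of 60.3%, and 4 members were higher and 0 lower. The median log2 fold change of all genes was 0.15 on that scale. DESeq2 gave 1128 higher and 1115 lower genes, 4 higher and 2 lower members and 5 lower list genes. With the proliferation score as a covariate, 410 genes were higher. Leaving out single libraries moved the higher genes between 115 and 2717, the lower genes between 16 and 2498, the higher members between 2 and 5, the lower members between 0 and 3, the higher list genes between 1 and 11 and the lower list genes between 0 and 9. The lowest counts of all genes came without Meis1-OE library B and the highest without YFP-CTRL library C.

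Among the members and the pathway genes followed through the alternatives, the sign turned for 5, which did not pass in either analysis. Tgfb1 was at -0.24 with the covariate and at -0.12 without YFP-CTRL library A. Tgfbr1 was at -0.11 without YFP-CTRL library C. Thbs1 was at -0.10 and Vasn at 0.31 with the covariate, Vasn was at 0.049 without YFP-CTRL library A, and Tgfbr3l was at -0.19 without Meis1-OE library A. Over all single libraries left out, the highest value of Tgfb1 was 0.30, Tgfbr3l reached 0.61, and Vasn ran from -0.62 to 0.049. The cause was not tested.

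Deviations of same-lettered libraries from their group means correlated at 0.24, 0.19 and 0.081 for letters A, B and C across genes, so the letters were not taken to pair the libraries. With the letter as a replicate block, 544 genes were higher and 189 lower, 3 members were higher (Tgfbr2 joined Tgfb2 and Tgfb3) and 0 lower, and 3 list genes were higher and 1 lower. Of the genes named in the report that passed without the block, those that did not pass with it were Tgfbr3 (-0.72, edgeR adjusted p = 0.0551), Ltbp4 (0.0563), Pmepa1 (0.0611), Fn1 (0.0659) and Snai2 (0.0559). In deviations from the group means, Meis1-OE libraries A and B, and not C, correlated best with the control of their own letter.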
